A study of Saccharomyces cerevisiae with 4 samples.

Results

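The untagged FLAG immunoprecipitate is the control library of a study that mapped Acs2, an acetyl-CoA synthetase, on the chromatin of budding yeast. It holds the DNA that an antibody against the FLAG peptide recovered from cells in which, per the labels, no protein carries that peptide. All 34 peaks of its list were taken as they were deposited, out of 946 peaks in the 2 lists of the study. Of these 34, 20 lay on nuclear chromosomes outside the ribosomal DNA, 4 in the ribosomal DNA and 10 on the mitochondrial chromosome.

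The study has 4 groups of 1 library each. They are the untagged strain immunoprecipitated with the M2 antibody, the untagged strain as input with no antibody, the Acs2-FLAG strain immunoprecipitated in the same way, and the Acs2-FLAG strain as input. The labels give the genotypes as untagged and Acs2-FLAG and name no further allele and no parent strain. All cultures were grown at 28 °C in YPD, a rich medium, with 2% glucose, were harvested at an optical density of 0.7 to 1.0 and were fixed with 1% formaldehyde. Since each group is 1 library, the spread between cultures is unknown and strains could not be tested against each other. Every 95% interval of a fold is an exact Poisson interval of the fragment count and covers counting error only, with the background held fixed.

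Chromatin immunoprecipitation recovers crosslinked DNA through an antibody, and a library from cells without the tag shows what is recovered when the intended target is missing. Antibody and beads also bind DNA and protein loosely. In yeast, highly transcribed genes are well known to be recovered in many unrelated immunoprecipitations, and the multi-copy ribosomal DNA and mitochondrial DNA give many fragments in any library. The fold of a peak is the authors' own value, the fragments of the immunoprecipitate at the peak's highest base (the summit) over the local background from the input. This direction is a reading of the list, whose name puts the input before the immunoprecipitate; the caller's settings are not given, and every fold below rests on it. Coordinates are on the R64 build, and genes are those of the RefSeq annotation of that build.

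**Figure D1:**
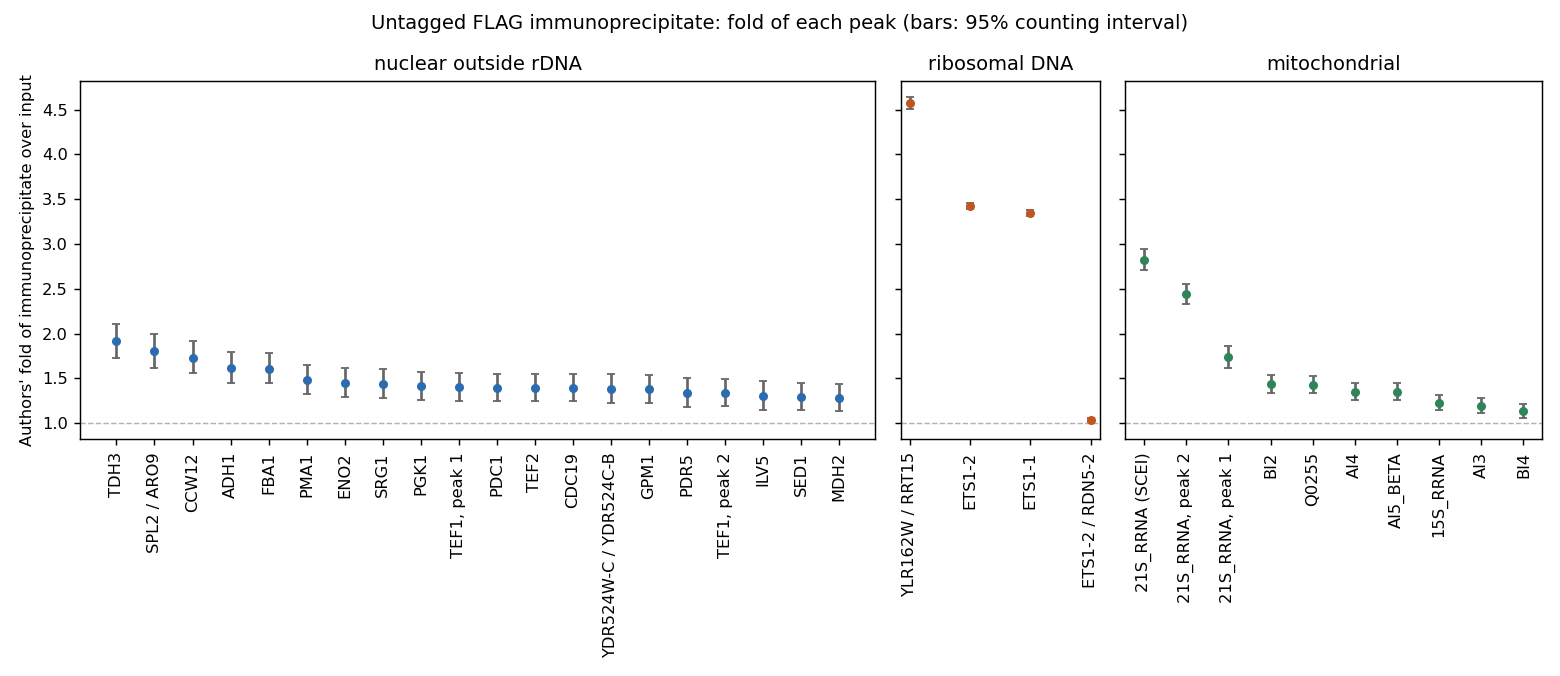
Authors' fold of the untagged immunoprecipitate over input (y axis) for each of the 34 peaks, named by the gene at the summit or the genes on either side, with 95% counting intervals as bars. The 20 nuclear peaks outside the ribosomal DNA run from 1.28 to 1.91, the ribosomal DNA peaks from 1.03 to 4.57 and the mitochondrial peaks from 1.13 to 2.82.

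The nuclear peaks outside the ribosomal DNA were weak, and 14 of the 20 had their summit in a gene of glycolysis, ethanol fermentation, translation elongation, or the cell wall and plasma membrane. Those gene lists were chosen with earlier results of these data known. The folds of the 20 peaks had a median of 1.40, with quartiles of 1.37 and 1.51. A protein-coding gene held the summit in 17 of the 20 cases, the non-coding RNA gene SRG1 in 1, and 2 summits stood between genes. TEF1 held 2 of these summits, so the coding genes numbered 16. Over all 6384 nuclear genes outside the ribosomal DNA, 30 had a peak between 500 bp upstream and the annotated end (0.47%), and 17 held a summit (0.266%).

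Glycolysis, the pathway from glucose to pyruvate, had peaks at 6 of 17 genes (35.3%, exact Clopper-Pearson interval 14.2 to 61.7), beside 0.47% of all nuclear genes. TDH3, a glyceraldehyde-3-phosphate dehydrogenase gene (locus YGR192C, chromosome VII, peak 882555 to 883861), was the strongest of the 20, with a fold of 1.91 (1.73 to 2.11). Its summit had 400 fragments in the immunoprecipitate and 208.7 in the local background. The intervals of 15 other nuclear peaks outside the ribosomal DNA lay below that of TDH3, and those of 4 overlapped it.

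FBA1, which encodes fructose-bisphosphate aldolase (chromosome XI, 326399 to 327399), had a fold of 1.61 (1.44 to 1.78). ENO2, an enolase gene (chromosome VIII, 451777 to 452805), had 1.45 (1.30 to 1.62). PGK1, phosphoglycerate kinase (chromosome III, 138311 to 138917), had 1.41 (1.26 to 1.57). These values do not separate ENO2 and PGK1 from each other within counting error.

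CDC19, the main pyruvate kinase gene (chromosome I, 72025 to 73222), had 1.39 (1.24 to 1.55). GPM1, phosphoglycerate mutase (chromosome XI, 163562 to 164039), had 1.38 (1.22 to 1.54). All 6 glycolytic genes with a peak also held its summit. HXK1, HXK2, GLK1 and PGI1, the genes of the hexose kinases and of phosphoglucose isomerase, were among the 11 members without an untagged peak. They are named as the first in list order, and the 11 also include genes of later steps. CDC19 was also the only 1 of the 6 genes of SESAME, the complex that contains Acs2, with an untagged peak. ACS2, SER33, SHM2 and SAM1 were among the other 5.

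Ethanol fermentation had peaks at 2 of 8 genes (25%, exact interval 3.19 to 65.1), beside 0.47% of all nuclear genes. ADH1, the main fermentative alcohol dehydrogenase gene (chromosome XV, 159394 to 160432), had a fold of 1.62 (1.45 to 1.80). PDC1, the main pyruvate decarboxylase gene (chromosome XII, 232502 to 233788), had 1.39 (1.25 to 1.55). PDC5, PDC6, ADH2 and ADH3, further isozyme genes of both steps, had none. Many of these enzymes have closely related copies in the genome, and the sources used here do not say how reads matching several copies were placed.

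The genes of translation elongation had peaks at 2 of 12 members (16.7%, exact interval 2.09 to 48.4), beside 0.47% of all nuclear genes. These were TEF1 and TEF2, which encode the same protein, elongation factor EF-1 alpha. TEF2 (chromosome II, 478502 to 478969) had a fold of 1.39 (1.25 to 1.55). TEF1 had separate peaks on chromosome XVI, at 700684 to 701128 with 1.40 (1.25 to 1.56) and at 701461 to 701897 with 1.34 (1.20 to 1.49). Both genes are 1377 bp long. The TEF2 summit lay 924 bp from the gene start and the second TEF1 summit 921 bp, while the first TEF1 summit, at 269 bp, had no TEF2 peak opposite it. Because the copies are near-identical, a value at either copy alone is uncertain. TEF4, CAM1, EFB1 and EFT1, which encode other elongation factors, were among the 10 members without a peak.

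Cell wall and plasma membrane genes had peaks at 3 of 26 members (11.5%, 2.45 to 30.2), beside 0.47% of all nuclear genes. CCW12, a short cell wall protein gene of 402 bp (chromosome XII, 369075 to 370055), had a fold of 1.73 (1.56 to 1.92). PMA1, the plasma membrane proton pump (chromosome VII, 479963 to 481935), had 1.48 (1.33 to 1.65) in the widest nuclear peak outside the ribosomal DNA, 1973 bp. SED1, a cell surface glycoprotein gene (chromosome IV, 601374 to 601717), had 1.29 (1.15 to 1.45). CCW14, CWP1, CWP2 and TIR1, other cell wall protein genes, had none.

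Among the other summits, 4 lay in genes on none of the lists. SRG1 (chromosome V, 322253 to 322710) is a non-coding RNA gene whose transcription represses SER3, the serine synthesis gene beside it, and its fold was 1.43 (1.28 to 1.61). PDR5, a multidrug export pump (chromosome XV, 622663 to 622908), had 1.34 (1.18 to 1.51). ILV5, an enzyme of branched-chain amino acid synthesis (chromosome XII, 838521 to 838828), had 1.30 (1.15 to 1.47). MDH2, the cytosolic malate dehydrogenase (chromosome XV, 82050 to 82407), had the lowest fold of the 20, 1.28 (1.13 to 1.44).

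Other gene classes had no untagged peak at all. The count was 0 of 137 cytosolic ribosomal protein genes, with an upper exact bound of 2.66%. It was 0 of 275 nuclear tRNA genes (upper bound 1.33%), 0 of 76 nuclear small nucleolar RNA genes (4.74%), 0 of 12 genes of Hsp70 and Hsp90 chaperones (26.5%) and 0 of 10 histone genes (30.8%). Against a background of 0.47% of genes, a count of 0 in lists of these sizes sets no list apart. At the lowest nuclear background, 198.4 fragments, a fold under 1.26 did not reach the weakest p of the list, so weaker signal at these genes was not detectable at this depth.

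Within genes, the untagged signal was highest past the middle. Of the 17 summits in coding genes, 15 lay past the midpoint, and 14 lay between 50 and 75% of the gene length from the start. The median position was 64.5% of the gene length, and the range was 19.5% to 95.4%. The lowest value was the first TEF1 peak and the highest TDH3, whose summit lay 953 bp into a gene of 999 bp. The ILV5 summit, at 46.0%, was the other one before the midpoint.

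**Figure D2:**
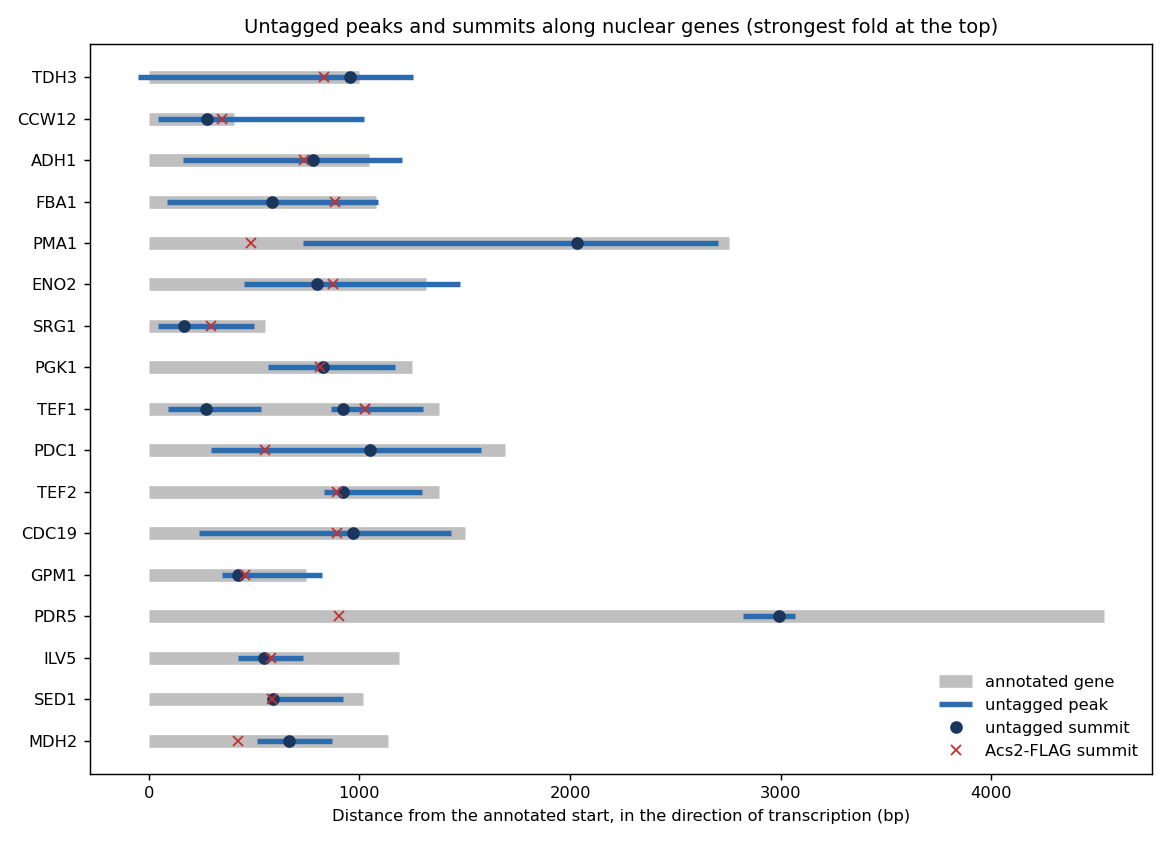
Each row is a nuclear gene drawn from its annotated start (x axis, bp in the direction of transcription), with the untagged peaks as blue bars, their summits as dots and the Acs2-FLAG summit of the same locus as a cross. The summits of 15 of 17 peaks in coding genes lie past the midpoint, and the PMA1 and PDR5 rows show the widest gaps between dot and cross.

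Most of the nuclear peaks in coding genes stayed within the annotated gene. For these genes the annotation spans the reading frame without untranslated ends, so a peak past its end can still lie in the transcript. Of the 17 peaks with a summit in a coding gene, 11 lay wholly inside it, 6 ran past the annotated end and 1, at TDH3, also ran past the annotated start. The TDH3 peak covered the whole gene. The share of the gene under the peak had a median of 53.5% and ran down to 5.42% at PDR5, a gene of 4536 bp with a peak of 246 bp. At CCW12, 36.6% of the 981 bp peak lay in the gene, and the rest ran past its end into the end of AHP1, the thioredoxin peroxidase gene on the opposite strand.

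Wider nuclear peaks were also the stronger ones. Across the 20 peaks, fold and width had a Spearman correlation of 0.54, a description over peaks of 1 library that share its depth and its calling threshold. The 7 peaks of at least 1000 bp had folds of 1.39 or more. The 11 peaks under 500 bp had folds of up to 1.43 where the summit lay in a gene, and 1 intergenic peak stood above them.

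That intergenic peak lay on chromosome VIII from 375427 to 375700, in the shared upstream region of SPL2, a regulator of phosphate transport, and ARO9, an aromatic aminotransferase gene. Its fold was 1.80 (1.62 to 2.00), the second highest of the nuclear peaks outside the ribosomal DNA after TDH3. Its summit had 358 fragments against a background of 198.4. That background is the lowest of the list, and 4 of the 20 peaks, on different chromosomes, had it. A value common to several sites need not be the input at this site. The peak was 274 bp wide, and its summit stood 171 bp upstream of ARO9 and 438 bp upstream of SPL2. It was also the sole nuclear untagged peak with no Acs2-FLAG peak over it. The nearest Acs2-FLAG peak was 566 bp away and had a fold of 1.29. Had the local background there scaled with the lowest background of each library, an Acs2-FLAG fold of 1.16 would have reached that list's weakest p.

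The other intergenic summit lay on chromosome IV (peak 1489410 to 1489700) between the ends of the short genes YDR524W-C and YDR524C-B, 23 bp and 83 bp away. Its fold was 1.38 (1.22 to 1.55), close to the median of the 20 peaks. An Acs2-FLAG peak covered it.

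Of the 24 nuclear untagged peaks, ribosomal DNA included, 23 had an Acs2-FLAG peak at the same locus, by 1 bp of overlap or more (95.8%, exact interval 78.9 to 99.9). The Acs2-FLAG list holds 903 peaks on nuclear chromosomes outside the ribosomal DNA and 9 in it. What share of all nuclear bases or genes they cover was not computed, so the 95.8% has no background share beside it. Outside the ribosomal DNA all 19 untagged peaks that met an Acs2-FLAG peak lay wholly inside it. Both TEF1 peaks fell in the same one, so 18 Acs2-FLAG peaks were involved. The untagged peaks were a median of 31.4% as wide, from 4.59% at PDR5 to 70.5% at TDH3.

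At these 19 loci the untagged fold was 0.45 times the Acs2-FLAG fold at the median, from 0.32 to 0.62, each library taken over its own input. The untagged part above 1 came to a median of 20.1% of the Acs2-FLAG part (12.9 to 29.4%). Each fold is the one at its own library's summit, and these summits were up to 2090 bp apart. The loci are only those where an untagged peak was called, so these ratios do not describe Acs2-FLAG peaks in general. At GPM1 the fold was 1.38 (1.22 to 1.54) in the untagged library and 3.67 (3.47 to 3.88) in the Acs2-FLAG library. At SRG1 it was 1.43 in the untagged and 3.17 in the Acs2-FLAG library, and at MDH2 1.28 and 2.63 in the same libraries. The lowest background was 198.4 fragments in the untagged and 291.1 in the Acs2-FLAG library. The weakest p also differed, with a −log10 p of 3.85 in the untagged and 2.54 in the Acs2-FLAG list. With both differences, weaker folds could be called in the Acs2-FLAG library.

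**Figure D3:**
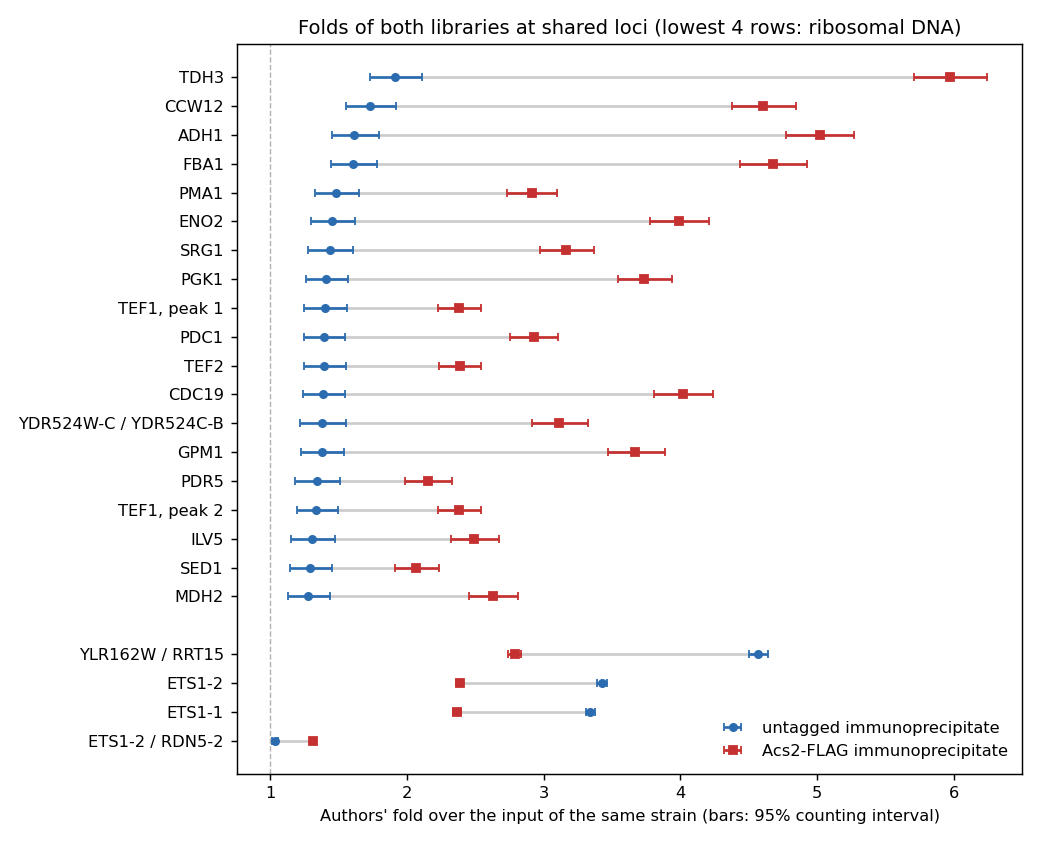
Authors' fold (x axis) of the untagged immunoprecipitate (dots) and the Acs2-FLAG immunoprecipitate (squares), each over the input of its strain, at the 23 nuclear untagged peaks that overlap an Acs2-FLAG peak, with 95% counting intervals. The untagged value is the lower one at all 19 loci outside the ribosomal DNA and the higher one at 3 of the 4 ribosomal DNA loci in the lowest rows.

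The highest points of both libraries were close at some loci and far apart at others. The distance between summits had a median of 104 bp and was at most 100 bp at 9 of the 19 loci, down to 7 bp at SED1 and 14 bp at PGK1. It exceeded 500 bp at 3 loci. At PDR5 the untagged summit stood 2991 bp into the gene and the Acs2-FLAG summit 901 bp. At PMA1 these positions were 2032 bp and 487 bp, and at the first TEF1 peak 269 bp and 1025 bp. Past the midpoint lay 15 of the 17 untagged summits, and 12 of the Acs2-FLAG summits paired with them (1 of these counted at both TEF1 peaks), with medians of 64.5% and 64.9% of the gene length.

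The ribosomal DNA is a tandem array that the reference shows as a pair of 35S units and several 5S genes, so fragments from the whole array pile up on few annotated copies. Its 4 untagged peaks had local backgrounds of 3964 to 11218 fragments, with a median 55.1 times the lowest nuclear value. Of its 47 annotated genes, 21 had a peak (44.7%), a share that follows from peaks as long as a whole unit. Values at single copies are uncertain, since the copies are near-identical.

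RDN37-1 and RDN37-2, the 35S precursor units of 6858 bp each, were each covered in full by 1 peak (chromosome XII, 451530 to 458609 and 459653 to 467743). These peaks took in the 25S, 5.8S and 18S genes and all spacers of the units. The peak at RDN37-2 ran further past the end of its unit and also took in RDN5-1, a 5S gene between both units. The folds were 3.34 (3.31 to 3.38) and 3.43 (3.39 to 3.46). Both summits lay in ETS1, the external spacer transcribed first, 656 bp and 660 bp from the start of the unit, next to the 18S gene. In the Acs2-FLAG list the summit stood on the same base at RDN37-1 and 4 bp away at RDN37-2.

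The highest fold of the whole untagged list was 4.57 (4.50 to 4.64), on chromosome XII from 489946 to 490410, between YLR162W and RRT15 at the edge of the array. The Acs2-FLAG fold there was 2.79 (2.74 to 2.84), again with the summit on the same base. The remaining peak, 468361 to 468781, had its summit 452 bp before the 5S gene RDN5-2 and was the weakest of the list. Its fold was 1.03 (1.02 to 1.05), its summit was its first base, and the Acs2-FLAG summit lay 306 bp away.

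The mitochondrial genome of yeast encodes a few subunits of the respiratory chain and the ATP synthase, the rRNAs and tRNAs for its own translation, and reading frames inside introns. These frames encode maturases, which help their intron to be spliced out, and endonucleases, which spread introns between genomes. The 10 mitochondrial untagged peaks covered 7.39% of the annotated 85777 bp, against 0.121% of the nuclear chromosomes outside the ribosomal DNA. That was 11.7 peaks per 100 kb against 0.167. Their local background was 462 to 803 fragments, with a median 3.24 times the lowest nuclear value.

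**Figure D4:**
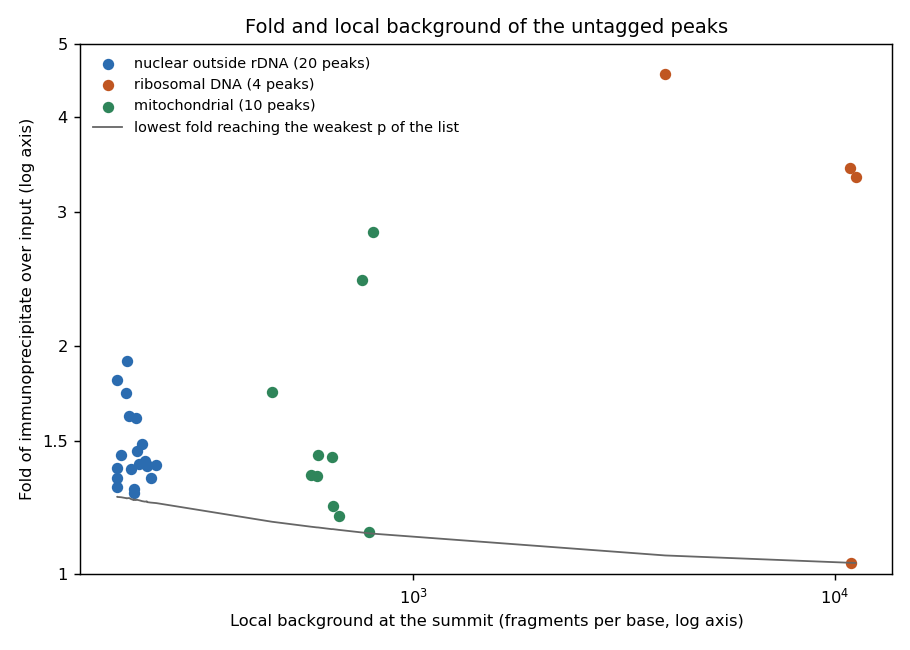
Fold of each untagged peak (y axis, log scale) against the local background at its summit (x axis, fragments per base, log scale), coloured by compartment, with a line for the lowest fold that reaches the weakest p of the list. The line runs from 1.26 at the lowest nuclear background to 1.03 in the ribosomal DNA, and 3 mitochondrial peaks lie under 1.26.

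Smaller folds could be called where the background was higher. The lowest fold that reached the weakest p of the list was 1.13 to 1.17 at the mitochondrial peaks and 1.24 to 1.26 at the nuclear ones outside the ribosomal DNA. The folds of 3 mitochondrial peaks were under 1.26, and those peaks would not have been called at the lowest nuclear background. The median mitochondrial fold was 1.39 and the nuclear median outside the ribosomal DNA 1.40.

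All bases under mitochondrial peaks lay in annotated genes, which make up 39.4% of the chromosome. Of the 46 mitochondrial genes, 13 held a summit (28.3%), a count that includes nested reading frames sharing a start. None of the 24 mitochondrial tRNA genes had a peak (upper exact bound 14.2%). Among the respiratory chain genes COX1 and COB had peaks, and COX2 and COX3 had none. The ATP synthase genes ATP6, ATP8 and OLI1 had none, nor did VAR1 of the small ribosomal subunit. COX1 and COB are the respiratory chain genes on this chromosome that are split by introns.

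The strongest mitochondrial signal was at 21S_RRNA, the large ribosomal RNA gene (58009 to 62447), with 3 peaks over 68.6% of its length. In order along the gene their folds were 1.74 (1.62 to 1.86), 2.44 (2.33 to 2.55) and 2.82 (2.71 to 2.94), with intervals that lay apart. The summits stood 906, 1821 and 3248 bp from the low-coordinate end of this gene of 4439 bp. The peaks were 784, 527 and 1734 bp wide, with gaps of 536 and 334 bp between them.

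At the third of these summits there were 2268 fragments in the immunoprecipitate and 803.0 in the local background. It lay in SCEI, the reading frame of the intron of this gene, which encodes the homing endonuclease I-SceI, and the peak covered the whole frame and ran past it on both sides. The gene makes up 5.18% of the chromosome and held 48.1% of the bases under mitochondrial peaks. Its 3 summits had 68.6% of the fragments above background, summed over the 10 summits.

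15S_RRNA, the small ribosomal RNA gene, had 1 peak (7384 to 7646) with a fold of 1.23 (1.15 to 1.32) and 793 fragments against a background of 644.6. It covered 15.9% of the gene. Its interval lay below those of all 3 peaks at 21S_RRNA.

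**Figure D5:**
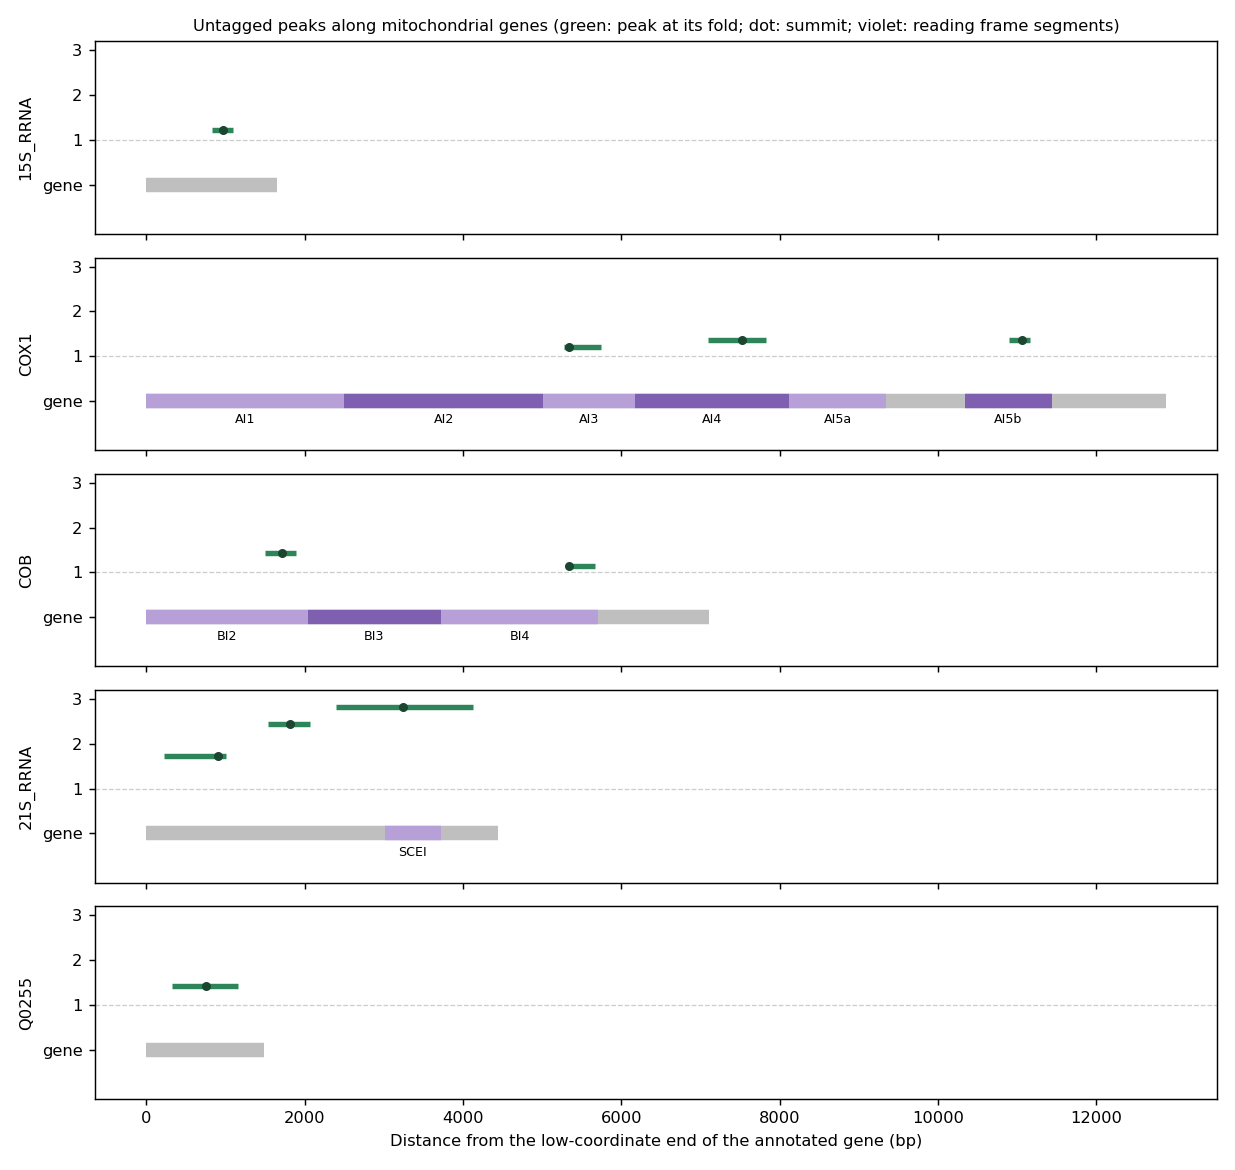
Mitochondrial genes with an untagged peak, drawn from their low-coordinate end (x axis, bp), with each peak as a green bar at its fold (y axis), its summit as a dot, and the segments of intron reading frames in violet on the grey gene. All 5 peaks in COX1 and COB lie in a reading frame segment, as most of both genes does, at folds of 1.13 to 1.43. The 3 peaks at 21S_RRNA run from 1.74 to 2.82.

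The 5 peaks in COX1, a cytochrome c oxidase subunit, and COB, cytochrome b, all lay inside segments of intron reading frames. Several frames share their start with the host gene, so each was taken from the end of the next shorter frame to its own end, a segment that also holds the exon between introns. Laid end to end, these segments span 13818 to 23167 of COX1 (13818 to 26701), with AI5_BETA beyond. In COB (36540 to 43647) they span 36540 to 42251. Most of both genes thus lies in a segment, so the 5 peaks do not set the frames apart within these genes. In COX1, the peak at 19098 to 19564 lay in AI3 with a fold of 1.19 (1.11 to 1.28). The peak at 20907 to 21649 lay in AI4 with 1.35 (1.26 to 1.45), and that at 24720 to 24980 in AI5_BETA with 1.35 (1.26 to 1.45).

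In COB, the peak at 38039 to 38427 lay in BI2 with a fold of 1.43 (1.34 to 1.53), and the peak at 41884 to 42214 in BI4 with 1.13 (1.06 to 1.21). BI2 and BI4 encode maturases, and AI3 and AI4 encode intron endonucleases. The BI4 peak was the weakest of the mitochondrial peaks, and its summit was the second base of the peak. Peaks were absent from the segments of AI1, AI2, AI5_ALPHA and BI3.

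The remaining peak (74824 to 75661) lay in Q0255, a reading frame that overlaps the end of COX2, with a fold of 1.43 (1.34 to 1.52). Q0255 is a free-standing frame and not an intron frame. Counting it and SCEI, 7 of the 10 mitochondrial summits lay in the segments of 7 of the 11 intron or free-standing reading frames. These segments make up 21.4% of the chromosome and held 59.0% of the bases under mitochondrial peaks. They also make up most of COX1 and COB, so the share of the chromosome is no measure within those genes. In 6 of the 7 the whole peak lay within the segment, SCEI being the exception. The 7 mitochondrial peaks outside 21S_RRNA had folds of 1.13 to 1.43 with a median of 1.35, and the intervals of 3 of them overlapped that of BI2, the strongest of the 7.

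No Acs2-FLAG peak lay at any of the 10 mitochondrial loci (0%, upper exact bound 30.8%) or elsewhere on the mitochondrial chromosome, where the Acs2-FLAG list has 0 of its 912 peaks. The sources used here do not say whether the mitochondrial chromosome was kept when the Acs2-FLAG peaks were called; if it was not, the count of 0 follows by construction. The Acs2-FLAG list gives no background there. Suppose the chromosome was kept and its background scaled with the lowest background of each library, a ratio of 1.47 for Acs2-FLAG over untagged. Folds of 1.08 to 1.11 would then have been called at the weakest p of the Acs2-FLAG list. All 10 untagged folds exceed that. How much mitochondrial DNA each input and immunoprecipitate held is not given by the lists, and its part in this count was not tested.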

How the data were processed

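Immunoprecipitate and input libraries of an untagged and an Acs2-FLAG strain gave 2 peak lists, 1 per immunoprecipitate. The submitters' processing notes name Trimmomatic, BWA, Picard, MACS2 and build R64; the sources used here give neither settings nor duplicate handling. Both lists name, per the file headers, the input first and then the immunoprecipitate of 1 strain; no setting gives the direction, and they were read as immunoprecipitate over input. Deposited values are a fold (ratio), a −log10 p and a −log10 q at the summit; the deposited score repeats the −log10 q.

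Fragment counts n and backgrounds b were solved from the fold, (n + 1)/(b + 1), and the Poisson p, a step tested on simulated data. In the untagged list 30 counts, and in the Acs2-FLAG list 907, were whole numbers within 0.05. Intervals are exact Poisson (folds) and Clopper-Pearson (shares), at 95%. Overlaps were checked with bedtools 2.31.1. The ribosomal DNA was chromosome XII 450000 to 500000. Genes came from a RefSeq table of 6477 R64 genes, with strand read from nuclear locus names and no upstream region for mitochondrial genes. Chromosome lengths end at the last annotated or peak base. Chromosome names were checked on tRNA genes: at least 70.0% met an Acs2-FLAG peak under their own chromosome's name and at most 30.8% under another's. No genome sequence was used, so the planned description of sequence under peaks was not run. Named genes are those at, or on either side of, each summit, and list members with a peak, with up to 4 without. Peaks and lists were chosen with earlier results of these data known. Software was Python 3.11.15 with scipy 1.17.1, numpy 2.4.6, matplotlib 3.10.9 and pandas 2.3.3.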

Additional observations from a re-analysis of the deposited data

How the results depend on the processing

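The share of nuclear untagged peaks with an Acs2-FLAG peak stayed within its exact interval under all 4 alternatives, at 91.7 to 95.8%. The mitochondrial share was 0% under all 4 by construction, since the Acs2-FLAG list has no mitochondrial peak. That holds whether or not the mitochondrial chromosome was left out of the Acs2-FLAG calls. A share was counted as moved outside its exact interval, a count beyond 1.5 times, and a median or the coverage, which have no interval, at any difference. By these rules 8 of 27 alternative values for the main results moved, and the 19 that did not include the 4 fixed mitochondrial shares. With the gene holding the summit alone, 17 nuclear genes were called in place of 30. With a −log10 q of at least 5, 13 nuclear peaks outside the ribosomal DNA remained of 20, the median summit position was 66.1% of the gene, the median ratio of untagged to Acs2-FLAG fold was 0.377 and mitochondrial coverage was 6.46%. By peak midpoint the median position was 64.9%. With a fold of at least 1.5, 5 nuclear peaks outside the ribosomal DNA and 3 mitochondrial peaks, those at 21S_RRNA, remained. Each of these alternatives uses fewer peaks, fewer genes or another point of the peak by construction; no further cause was tested. Counts for the 10 nuclear gene lists stayed within 1.5 times the reported value under 30 of 30 alternatives. The chaperone, histone, ribosomal protein, tRNA and small nucleolar RNA lists started at 0 genes. Their outcomes were fixed in advance, since each alternative only removes genes or peaks. No paired analysis was possible because each group has 1 library. The depth limits calls to folds of about 1.26 at the lowest nuclear background.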
